A study of Mus musculus with 20 samples.

Results

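Hemoglobin is the oxygen carrier of red blood cells, and 4 of its genes are measured here together with *Alas2*, the gene of the red cell enzyme for the first step of heme synthesis. The 5 genes were chosen by name out of 35580 genes, as a readout of the blood that remains in brain tissue. They are *Hba-a1* and *Hba-a2*, which encode the alpha chain, *Hbb-bs* and *Hbb-bt*, which encode the adult beta chain, and *Alas2*. Hippocampus and neocortex were sequenced from WT mice and from miR-324-null mice, a global knockout that lacks *Mir324* in every cell. All mice were males aged 13.5 months on a C57BL/6J background, and each of the 4 groups had 5 samples, 20 in all. The labels name no treatment, and sex and age are shared by all groups. The authors backcrossed founders of mixed C57BL/6 and CBA/ca origin onto C57BL/6J. Crosses of heterozygotes then gave the WT and miR-324-null lines. Whether CBA/ca sequence remains in either line was not tested. Whether blood was washed out of these brains, and whether a hippocampal and a neocortical sample with the same number came from the same mouse, is not given in the sources used here.

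Adult hemoglobin is built of alpha chains and beta chains, each holding a heme group, and red cell precursors make both kinds of chain in balance. *Alas2* feeds that synthesis, while other cells make heme with the related enzyme *Alas1*. Mammalian red cells lose their nucleus, and the youngest circulating ones, the reticulocytes, still hold RNA that is rich in globin messages. Brain tissue that has not been perfused keeps blood in its vessels, so hemoglobin RNA in a brain library is commonly read as blood, although low hemoglobin expression has also been described in neurons and glia.

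Each of the 5 genes has its place on GRCm38. *Hbb-bt* lies on chromosome 7 from 103812524 to 103813996 and *Hbb-bs* from 103826534 to 103828096, both on the minus strand. *Hba-a1* lies on chromosome 11 from 32283511 to 32284465 and *Hba-a2* from 32296489 to 32297298, both on the plus strand. *Alas2* lies on chromosome X from 150547375 to 150570638 on the plus strand. Both genes of a pair are near-identical copies, which limits how reads can be divided between them. The coding sequences of *Hba-a1* and *Hba-a2* have 426 bases each and differed at 1 of them, C381T, counted from the A of the start codon. Those of *Hbb-bs* and *Hbb-bt* have 441 bases each and also differed at 1, C417T, and both changes are silent, so that the genes of a pair encode the same protein. The coding stretches around these differences, from the annotated transcripts, are shown with the differing base in capitals because they are all that tells the copies apart within the coding sequence:
Hba-a1: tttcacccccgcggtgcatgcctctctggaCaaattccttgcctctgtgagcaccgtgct
Hba-a2: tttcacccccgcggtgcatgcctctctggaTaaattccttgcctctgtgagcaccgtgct
Hbb-bs: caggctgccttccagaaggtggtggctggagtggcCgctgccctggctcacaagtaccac
Hbb-bt: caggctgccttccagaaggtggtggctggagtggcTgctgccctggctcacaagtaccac

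The first pair shows coding bases 351 to 410 and the second pair bases 382 to 441. Over stretches of 31 bases of the main transcript, 71.4% of those of *Hba-a1*, 91.0% of those of *Hba-a2*, 66.9% of those of *Hbb-bs* and 59.4% of those of *Hbb-bt* also occurred in another gene, nearly always the other copy. This left 191, 47, 198 and 273 stretches of their own, respectively. *Alas2* shared none of its 2007 stretches. The division of reads within a pair is therefore uncertain, in particular for *Hba-a2*, whereas the alpha sum and the beta sum of counts do not depend on it. Sums in TPM, a scale that allows for transcript length, do depend on it in part. The effective lengths were 500 bases for *Hba-a1* and 355 for *Hba-a2*, and 429 for *Hbb-bs* and 504 for *Hbb-bt*.

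The alpha pair is also alike upstream. All 247 bases that could be compared before the RefSeq start sites of *Hba-a1* and *Hba-a2* were identical. The RefSeq start lay 161 bases inside the annotated *Hba-a1* transcript and 3 bases inside that of *Hba-a2*. Part of the 191 stretches counted as *Hba-a1*'s own lie in the piece before its RefSeq start, which has the sequence found upstream of *Hba-a2*. If that piece is not transcribed, fewer stretches tell *Hba-a1* apart, and this was not tested. The 150 bases in front of the annotated *Hba-a2* transcript are shown as the shared alpha promoter (RefSeq, GRCm38.p6, plus strand, chr11:32296339-32296488), with the letters of a CCAAT box, a CACCC box and the TATA box (TATAA) in capitals:
Hba-a2 promoter: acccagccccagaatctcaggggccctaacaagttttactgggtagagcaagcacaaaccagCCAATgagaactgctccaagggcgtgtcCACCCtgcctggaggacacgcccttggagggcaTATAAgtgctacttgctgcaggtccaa

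Such boxes are known elements of red cell promoters, the CACCC box as a site of factors of the KLF family and GATAA as a site of GATA factors. In the 250 bases before the start and on either strand, CACCC was found in all 5 members, and so were GATAA letters and TATAA letters, while CCAAT was found in 4, the exception being *Alas2*. Over all 32851 mouse promoters of this length in the reference, 52.0% held CACCC, 33.8% CCAAT, 22.6% GATAA and 22.8% TATAA, and 3.45% held the first 3 of these together. A match of letters is a description of the sequence and not a binding site. For *Hbb-bs*, *Hbb-bt* and *Alas2* the RefSeq start lay 168, 73 and 42 bases inside the gene coordinates given above. Some of the letters of these genes and of *Hba-a1* therefore lie within those coordinates.

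Levels are given as CPM, the estimated count of a gene scaled to a common library size by TMM normalization. Over all genes and transcripts the libraries held from 12752439 to 19617765 estimated counts. The 4 hemoglobin genes together held between 0.0214% and 0.138% of the estimated counts of a sample. In TPM, a scale that also allows for transcript length and so lets genes be ranked, *Hba-a1* stood between the 33rd and the 416th place of all genes in a sample, and *Alas2* between place 8027 and place 12354. The labelled tissues were borne out by their markers, since the summed level of 7 hippocampal field genes lay between 437 and 570.0 CPM in the hippocampus and between 77.6 and 218 CPM in the neocortex (WT 77.6 to 111, miR-324-null 89.5 to 218). That of 7 neocortical layer genes lay between 174 and 248 CPM in the hippocampus and between 443 and 722 CPM in the neocortex (WT 597 to 659.6, miR-324-null 443 to 722). Libraries that stood apart in choroid plexus genes were WT hippocampus replicate 3, miR-324-null hippocampus replicate 5 and miR-324-null neocortex replicate 2, and their values stand with those of hemoglobin further on.

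The summed hemoglobin level differed more between samples of one group than between the groups. In WT hippocampus the 4 genes summed to 575, 632, 1372, 409.6 and 356 CPM in replicates 1 to 5. In miR-324-null hippocampus they summed to 318, 880.3, 964, 278 and 371 CPM. WT replicate 3 was the highest of all 20 samples, and miR-324-null replicates 2 and 3 came next, while the other 3 miR-324-null samples lay below 4 of the 5 WT samples. In WT neocortex the sum was 640.0, 538, 444, 281 and 399 CPM, and in miR-324-null neocortex it was 341, 598, 403, 211 and 369 CPM. The neocortical samples were thus spread over a narrower range, and the genotypes overlapped in both tissues. Hemoglobin differed by 6.49-fold between the highest and the lowest sample, and by 3.86-fold within WT hippocampus alone.

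**Figure D1:**
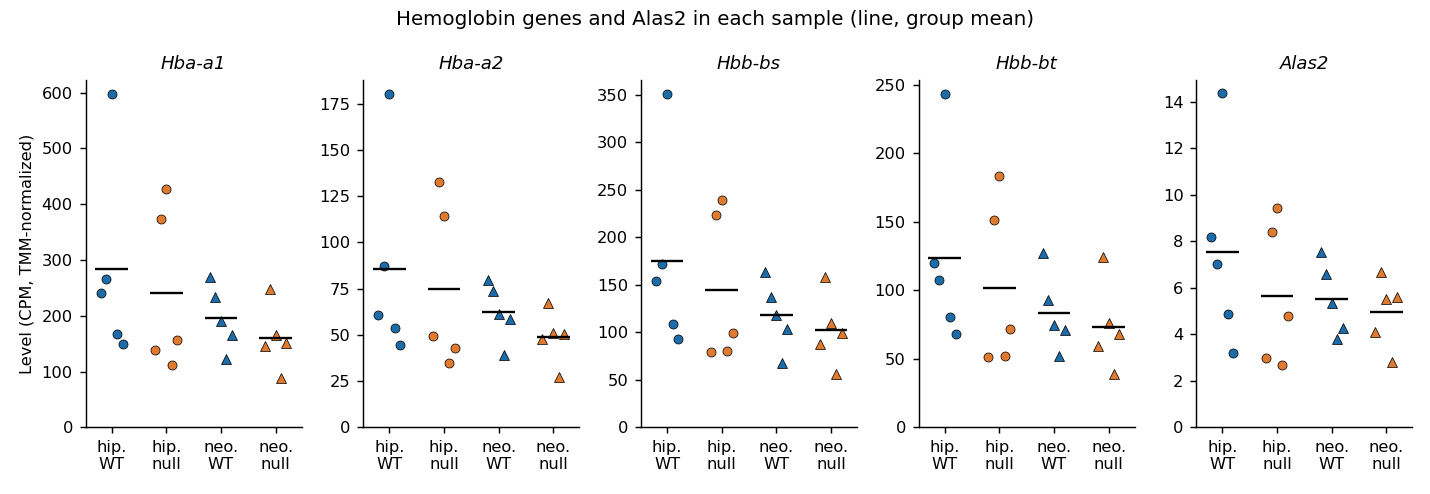
Level in CPM (vertical axes, from 0, a scale of its own for each gene) of the 5 genes in every sample, for hippocampus (hip., circles) and neocortex (neo., triangles) of WT (blue) and miR-324-null (null, orange) mice, with the mean of the 5 samples of a group as a line. The same samples are high in all 5 panels, with WT hippocampus replicate 3 on top at 597 CPM of *Hba-a1* and 14.4 CPM of *Alas2*, and the genotypes overlap in each tissue.

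*Hba-a1*, an alpha gene, had the highest level per length of the 5 genes, with a median of 562 TPM over all samples. In WT hippocampus *Hba-a1* stood at 241, 266, 597, 167 and 150.3 CPM in replicates 1 to 5. In miR-324-null hippocampus *Hba-a1* stood at 138, 373, 427, 112 and 156 CPM. Replicate 3 of the WT group and replicates 2 and 3 of the miR-324-null group were the high samples, and the groups overlapped. In the neocortex *Hba-a1* stood at 269, 234, 190.0, 122 and 165 CPM in WT samples and at 146, 248, 166, 88.3 and 152 CPM in miR-324-null samples. There the groups overlapped too, with 1 miR-324-null sample above 4 of the WT samples. For WT hippocampus the mean was 284 CPM with an SD of 182 (n = 5), and for the miR-324-null samples it was 241 with an SD of 147 (n = 5). The neocortical means were 196 with an SD of 57.5 (WT, n = 5) and 160.1 with an SD of 57.5 (miR-324-null, n = 5).

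*Hba-a2*, the other alpha gene, had a median of 254 TPM and followed the first. In WT hippocampus *Hba-a2* stood at 60.7, 87.3, 180.3, 53.9 and 44.7 CPM in replicates 1 to 5. In miR-324-null hippocampus *Hba-a2* stood at 49.3, 133, 114, 34.8 and 43.1 CPM. The same 3 samples were high as for *Hba-a1*, although replicate 2 of the miR-324-null group was here above replicate 3. In the neocortex *Hba-a2* stood at 79.8, 73.5, 61.3, 39.1 and 58.7 CPM in WT and at 47.6, 67.1, 51.0, 27.3 and 50.3 CPM in miR-324-null samples. The neocortical groups overlapped, with the lowest value of all samples in miR-324-null replicate 4. Group means, in the order given, were 85.4 ± 55.4, 74.8 ± 45.2, 62.5 ± 15.7 and 48.7 ± 14.2 CPM (SD, n = 5 each). Its share of the alpha counts lay between 20.1% (95% Wilson interval 19.0 to 21.3%) in WT hippocampus replicate 1 and 26.3% (24.6 to 28.1%) in miR-324-null hippocampus replicate 1. These intervals cover counting error only, and not the division of reads between copies.

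*Hbb-bs* had the higher level per length of the beta genes, with a median of 430.3 TPM. In WT hippocampus *Hbb-bs* stood at 154, 172, 351, 109 and 93.0 CPM in replicates 1 to 5. In miR-324-null hippocampus *Hbb-bs* stood at 79.3, 224, 239, 80.1 and 99.7 CPM. WT replicate 3 was again the highest sample and the groups overlapped. In the neocortex *Hbb-bs* stood at 164, 137, 118, 67.6 and 104 CPM in WT and at 87.6, 158, 110.0, 56.5 and 98.9 CPM in miR-324-null samples. Here too the groups overlapped, and the range was narrower than in the hippocampus. Group means, in the same order, were 176 ± 103, 144 ± 80.1, 118 ± 36.1 and 102 ± 37.1 CPM (SD, n = 5 each).

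*Hbb-bt*, the other adult beta gene, had a median of 255 TPM. In WT hippocampus *Hbb-bt* stood at 119.6, 108, 243, 80.4 and 67.8 CPM in replicates 1 to 5. In miR-324-null hippocampus *Hbb-bt* stood at 51.2, 151, 184, 51.9 and 72.0 CPM. Replicates 2 and 3 of the miR-324-null group lay above 4 of the WT samples, and the 3 others lay below 4 of them. In the neocortex *Hbb-bt* stood at 127, 93.3, 74.4, 51.8 and 70.7 CPM in WT and at 59.6, 124, 76.4, 39.2 and 68.1 CPM in miR-324-null samples. The neocortical groups overlapped. Its group means were 124 ± 70.0, 102 ± 61.4, 83.5 ± 28.6 and 73.5 ± 31.6 CPM (SD, n = 5 each). Its share of the beta counts lay between 38.6% (95% Wilson interval 37.1 to 40.04%) in WT hippocampus replicate 2 and 44.0% (42.7 to 45.3%) in miR-324-null neocortex replicate 2.

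*Alas2*, the red cell enzyme of heme synthesis, had a median of 5.82 TPM and at least 36 estimated counts in every sample. In WT hippocampus *Alas2* stood at 8.20, 7.04, 14.4, 4.88 and 3.18 CPM in replicates 1 to 5. In miR-324-null hippocampus *Alas2* stood at 2.97, 8.42, 9.42, 2.68 and 4.78 CPM. The highest sample and the next ones were those with the most hemoglobin, and the groups overlapped. In the neocortex *Alas2* stood at 7.55, 6.58, 5.33, 3.81 and 4.25 CPM in WT and at 4.10, 6.67, 5.53, 2.80 and 5.59 CPM in miR-324-null samples. These groups overlapped too, and the 4 group means were 7.53 ± 4.28, 5.65 ± 3.11, 5.51 ± 1.56 and 4.94 ± 1.502 CPM (SD, n = 5 each). The transcript of 2037 bases was above 0 in all 20 samples, and that of 1892 bases in 13, while the 2 non-coding transcripts stayed at 17.7 estimated counts or lower. In TPM, *Alas2* came to 0.359% ± 0.0793 (SD, n = 20) of the summed hemoglobin, a sum that depends in part on the division of reads between copies.

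None of the 5 genes passed the test for genotype in either tissue. In the hippocampus all 5 had a lower mean in miR-324-null samples, with log2 fold changes between -0.41 for *Alas2* and -0.19 for *Hba-a2*. In the quasi-likelihood test of edgeR, with p values adjusted by Benjamini and Hochberg's method over 14796 genes, 0 of the 5 passed at an adjusted p of 0.05, against 0.115% of all genes. Their adjusted p values ran from 0.759 to 0.912. The groups of all 5 overlapped, whereas 2.55% of the genes tested had groups that did not. For *Hba-a1* the log2 fold change was -0.24 (standard error 0.44, 95% interval -1.18 to 0.71, adjusted p = 0.882 by edgeR), an interval that spans folds from 0.44 to 1.63. For *Alas2* it was -0.41 (standard error 0.41, 95% interval -1.31 to 0.49, adjusted p = 0.759 by edgeR). Without WT replicate 3, the library highest in hemoglobin, the log2 fold changes of the 4 hemoglobin genes turned positive, to 0.23 for *Hba-a1*, 0.28 for *Hba-a2*, 0.13 for *Hbb-bs* and 0.12 for *Hbb-bt*. The direction of these 4 in the hippocampus therefore rested on 1 library.

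In the neocortex the 5 genes again had lower means in miR-324-null samples, with log2 fold changes between -0.35 for *Hba-a2* and -0.14 for *Alas2*. Of the 5, 0 passed edgeR's test, against 0.315% of the 14930 genes tested, with adjusted p values between 0.543 and 0.862. The groups of all 5 overlapped, and those of 2.30% of the genes tested did not. The value of *Hba-a2* was -0.35 (standard error 0.21, 95% interval -0.81 to 0.10, adjusted p = 0.543 by edgeR). *Hbb-bs* had -0.20 (95% interval -0.74 to 0.34) and *Hba-a1* -0.28 (95% interval -0.81 to 0.24). Without WT replicate 1 the value of *Hbb-bt* moved from -0.17 to 0.028, and without miR-324-null replicate 4 that of *Alas2* moved from -0.14 to 0.0066. The neocortical groups also differed in tissue markers. Hippocampal field genes summed to between 155 and 218 CPM in miR-324-null replicates 1 to 4, above the 77.6 to 111 CPM of all WT samples, and to 89.5 CPM in miR-324-null replicate 5. Layer genes summed to between 443 and 534 CPM in replicates 1 to 4, below the 597 to 659.6 CPM of WT, and to 722 CPM in replicate 5. For genotype in the neocortex 0 of the 5 field genes tested and 0 of the 7 layer genes passed, and the part of these markers in the hemoglobin values was not tested. Without replicate 5, *Hba-a1* had a log2 fold change of -0.26, *Hba-a2* of -0.36, *Hbb-bs* of -0.19, *Hbb-bt* of -0.14 and *Alas2* of -0.19, and 0 of the 5 passed.

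With the copies summed, the alpha sum had a log2 fold change of -0.23 in the hippocampus (adjusted p = 0.891 by edgeR) and the beta sum of -0.28 (adjusted p = 0.844 by edgeR). Neither sum passed.

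Between the tissues, the 5 genes had higher means in the hippocampus in both genotypes, but within the spread of the samples. In WT samples the log2 fold changes of hippocampus over neocortex lay between 0.46 and 0.57. In edgeR's test 0 of the 5 passed, against 36.1% of the 14894 genes tested, with adjusted p values between 0.184 and 0.317. The tissues of all 5 overlapped, unlike those of 26.5% of the genes tested. Without WT hippocampus replicate 3 these values fell to 0.08 for *Hba-a1*, -0.0063 for *Hba-a2*, 0.17 for *Hbb-bs*, 0.18 for *Hbb-bt* and 0.10 for *Alas2*. In miR-324-null samples they lay between 0.21 for *Alas2* and 0.63 for *Hba-a2*, and 0 of the 5 passed, against 27.4% of 15033 genes (adjusted p between 0.217 and 0.701 by edgeR). The tissues overlapped for all 5 here as well, unlike 21.1% of the genes tested. Without miR-324-null hippocampus replicate 3 the value of *Alas2* turned to -0.063. The difference of the genotype contrasts between the tissues lay between -0.26 for *Alas2* and 0.17 for *Hba-a2*, and 0 of the 5 passed the interaction test, against 0.0195% of 15391 genes (adjusted p between 0.987 and 0.997 by edgeR).

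**Figure D2:**
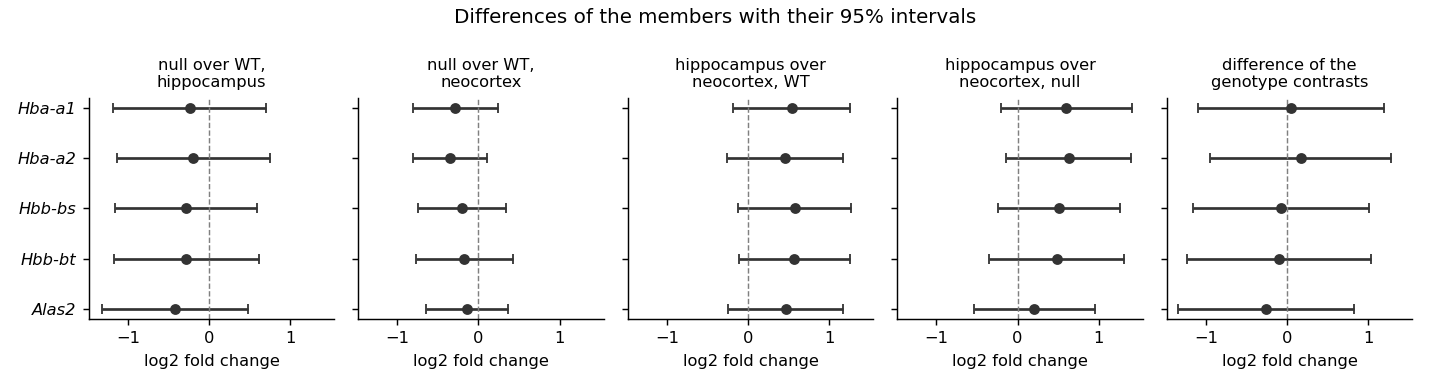
Log2 fold change (horizontal axis) of each of the 5 genes with its 95% interval from edgeR, for miR-324-null (null) over WT in each tissue, for hippocampus over neocortex in each genotype, and for the difference of the genotype contrasts (hippocampus minus neocortex). Every interval includes 0, and of the genotype contrasts those of the hippocampus are wider, with standard errors between 0.40 and 0.44 against 0.21 to 0.27 in the neocortex.

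The spread of these genes between samples of one group was among the larger ones. The SD of log2 CPM within the groups was between 0.65 for *Alas2* and 0.68 for *Hba-a1*, whereas the median over 15391 genes was 0.15. Over all these genes 503 had a larger SD than *Hba-a1* and 581 a larger one than *Alas2*. Among the 11503 genes with a mean at or above that of *Alas2*, 54 had a larger SD than *Hba-a1*, and 66 a larger one than *Alas2*. With at least 467 estimated counts in every sample for each hemoglobin gene, counting error was a small part of this spread. In the hippocampus the SD of *Hba-a1* was 63.9% of the mean for WT and 61.0% for miR-324-null samples, and in the neocortex it was 29.3% and 35.9%.

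The members moved together from sample to sample. Over the 10 hippocampal samples, the alpha sum and the beta sum had a Pearson r of 0.99 (permutation test, two-sided, p = 2e-05, adjusted p = 3.2e-05) and a Spearman rho of 0.99 (p = 2e-05, adjusted p = 3.2e-05). Over the 10 neocortical samples r was 0.98 (permutation p = 1e-05, adjusted p = 3.2e-05) and rho 0.99 (p = 3e-05, adjusted p = 3.4e-05). The summed hemoglobin and *Alas2*, which share no sequence, had an r of 0.96 in the hippocampus (permutation p = 3e-05, adjusted p = 3.4e-05) and a rho of 0.99 (p = 1e-05, adjusted p = 3.2e-05). In the neocortex r was 0.95 (permutation p = 2e-05, adjusted p = 3.2e-05) and rho 0.92 (p = 0.00052, adjusted p = 0.00052). These 4 relations, with r and rho adjusted together, were computed as one family on log2 CPM, and 1e-05 is the smallest p that the 100000 permutations can give. After the 2 samples farthest from the median were left out, r was 0.97 for alpha and beta in both tissues, and 0.93 in the hippocampus and 0.88 in the neocortex for hemoglobin and *Alas2*. With the means of the genotypes removed, the 4 values lay between 0.96 and 0.99, so that the relations were as close within the genotypes.

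**Figure D3:**
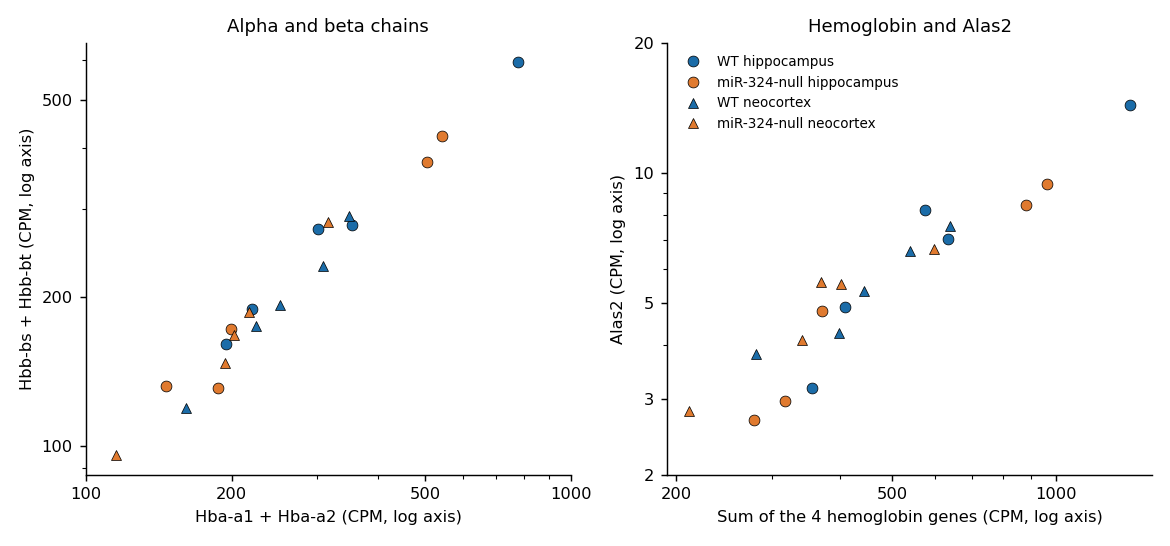
Left, the summed level of the alpha genes (horizontal) against that of the beta genes (vertical), and right, the summed level of the 4 hemoglobin genes (horizontal) against that of *Alas2* (vertical), in CPM on log axes, with 1 point per sample. In each tissue the points of both genotypes lie along one line, with r of 0.99 and 0.98 on the left and 0.96 and 0.95 on the right for hippocampus and neocortex.

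The balance of the chains varied far less than the hemoglobin level, though by more than counting error. Alpha made up 52.5% of the hemoglobin counts (95% Wilson interval 51.4 to 53.5%) in WT hippocampus replicate 1. In miR-324-null hippocampus replicate 1 it made up 58.9% (57.4 to 60.5%). In TPM, the alpha sum was 1.25 ± 0.0964 times the beta sum (SD, n = 20), with a range from 1.10 to 1.45, while the hemoglobin sum itself ranged over 6.07-fold in TPM. The ratio of summed counts, which does not depend on the division within a pair, was 1.24 ± 0.0924 (SD, n = 20). Its range was 1.10 to 1.44. In the hippocampus the TPM ratio was 1.21 ± 0.0823 for WT and 1.27 ± 0.141 for miR-324-null samples (SD, n = 5 each). For the neocortex it was 1.3003 ± 0.0607 and 1.21 ± 0.0771 (SD, n = 5 each), and the genotypes overlapped in both tissues.

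Across all genes, *Alas2* was the one most like hemoglobin. Over the 20 samples with the 4 group means removed, log2 CPM of each of 15391 genes was compared with log2 of the summed hemoglobin level. The 4 genes of the sum had r of 0.98 or more by construction, and *Alas2*, which is no part of it, had an r of 0.96 (0.96 within the hippocampus and 0.95 within the neocortex). The genes next in order were *Plekhf1* at 0.80, *Tob2* at 0.77, *Cd276* at 0.76, *Brd2* at 0.75 and *Dusp5* at 0.75. *Plekhf1* had 0.89 within the hippocampus and 0.61 within the neocortex, *Tob2* 0.84 and 0.68, *Cd276* 0.88 and 0.41, *Brd2* 0.88 and 0.51, and *Dusp5* 0.82 and 0.75. Beyond the 5 members, 21 genes were over 0.7 and 0 over 0.9, while 57 were under -0.7, the lowest at -0.84, and the median over all genes was 0.02. The points of these correlations share libraries, and no test was made of them.

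**Figure D4:**
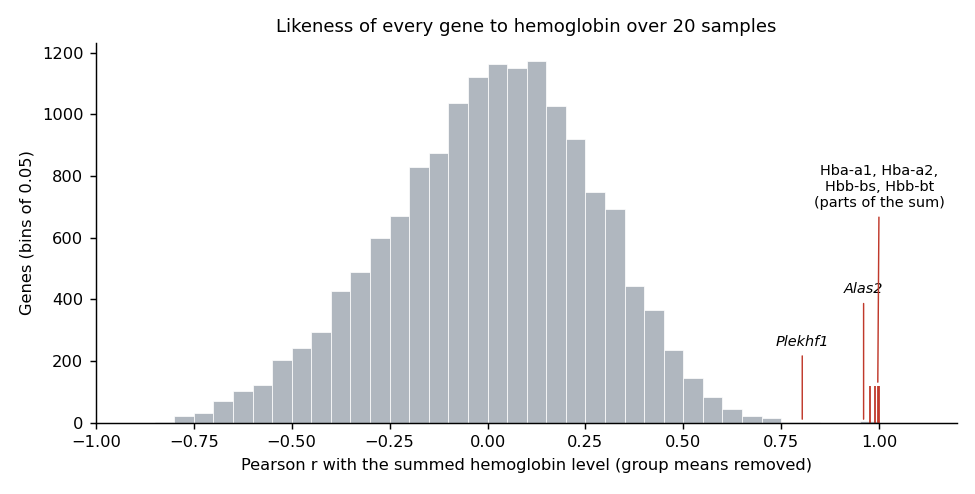
Number of genes (vertical) by their Pearson r with the summed hemoglobin level over 20 samples with group means removed (horizontal, bins of 0.05). The 4 hemoglobin genes and *Alas2*, marked in red, stand at 0.96 or more, apart from *Plekhf1* at 0.80 and from the bulk of the 15391 genes around the median of 0.02.

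A fit with the log2 hemoglobin level as a term beside genotype called 0 genes beyond the 5 members in either tissue. In the hippocampus 5 genes passed for this term, or 0.0338% of the genes tested, and they were the 5 members. *Alas2* changed by 0.96 on the log2 scale per doubling of hemoglobin (standard error 0.10, adjusted p = 0.00218 by edgeR's test). In the neocortex 4 genes passed, or 0.0268% of those tested, which were the 4 hemoglobin genes that make up the term. There *Alas2* changed by 0.86 per doubling (standard error 0.13, unadjusted p = 3.18e-05, adjusted p = 0.0792 by edgeR's test).

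Most other genes of the red cell were low, with exceptions. Of 20 genes chosen as markers of red cells and their precursors, 19 were matched by symbol, and 14 of them stayed under 1 CPM in every sample, the highest value among these being 0.650 CPM. *Slc4a1*, the band 3 anion exchanger of the red cell membrane, stood between 0 and 0.650 CPM. *Klf1* and *Gata1*, transcription factors of red cell precursors, had at most 3 and at most 1 estimated count in any sample. *Epb42*, of the membrane skeleton, and *Hemgn*, of precursor nuclei, had at most 4 counts each. The 5 genes of the list that passed the filter of edgeR were *Tmcc2* (median 221 CPM), *Bpgm* (56.9 CPM), which makes the hemoglobin ligand 2,3-bisphosphoglycerate, *Slc25a37* (32.7 CPM), a mitochondrial iron carrier, *Epor* (5.85 CPM), the erythropoietin receptor, and *Ermap* (1.31 CPM). Their r with hemoglobin was 0.20, 0.57, -0.65, -0.19 and -0.19, in that order, and other cells are also known to use genes such as *Bpgm* and *Slc25a37*. Of these 5, 0 passed for genotype in either tissue, while *Tmcc2* was higher and *Slc25a37* and *Epor* were lower in the hippocampus in both genotypes. *Tmcc2* differed by 0.42 on the log2 scale in WT (adjusted p = 0.000164 by edgeR) and *Slc25a37* by -0.60 (adjusted p = 0.000228 by edgeR).

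Most of the other globin genes were too low to be compared with hemoglobin. Of 12 listed, 10 were matched. The embryonic genes *Hba-x*, *Hbb-bh0* and *Hbb-bh2* were at 0 counts in all 20 samples, and *Hbb-y* and *Hbb-bh1* had at most 3 and at most 1 count. With 0 counts in every sample, these libraries allow a level of up to 3 counts in each. *Hbq1a*, *Hbq1b* and the muscle gene *Mb* stayed under 1 CPM. The 2 that passed the filter are globins of non-blood cells. *Cygb*, cytoglobin, stood between 43.4 and 74.2 CPM, and *Ngb*, neuroglobin, between 1.11 and 5.17 CPM, with r of -0.06 and -0.04 with hemoglobin. Of the 2, 0 passed for genotype, and *Cygb* was higher in the hippocampus, by 0.23 on the log2 scale in WT (adjusted p = 0.0239 by edgeR) and by 0.30 in miR-324-null samples (adjusted p = 0.0158 by edgeR).

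Markers of white blood cells and platelets were low. Of 15 leukocyte genes, 12 did not pass the filter even in the fit of all 20 samples, among them the neutrophil genes *S100a8* and *S100a9* with highest values of 0.651 and 1.01 CPM. Those that passed it were *Ptprc* (median 4.15 CPM), which microglia also express, the B cell gene *Cd79a* (0.529 CPM) and the chemokine receptor *Ccr2* (0.457 CPM), and in the fits of 10 samples 1 was tested, *Ptprc*. Of 8 platelet genes, 3 passed, with *Itga2b* at a median of 2.13 CPM, *Gp1bb* at 1.26 CPM and *Gp1ba* at 0.851 CPM, while *Pf4* had a median of 0.348 CPM. Of both lists 0 genes passed in any of the 5 comparisons.

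**Figure D5:**
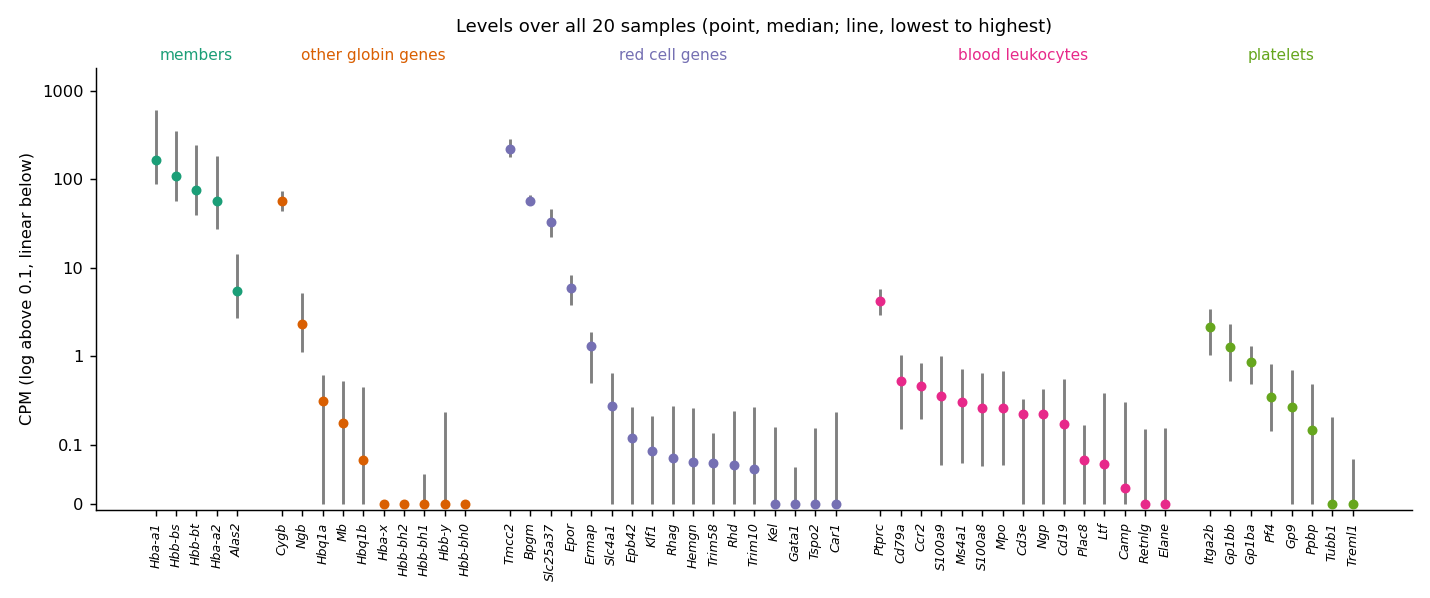
Level in CPM (vertical axis, logarithmic above 0.1 and linear below) of the 5 members and of genes listed for other globins, red cells, blood leukocytes and platelets over all 20 samples, with the median as a point and a line from the lowest to the highest sample. CPM is not corrected for length, so heights compare samples and not genes. The line of *Hba-a1* runs from 88.3 to 597 CPM, and that of *Slc4a1* from 0 to 0.650 CPM. Because the scale changes at 0.1, the drawn length of a line is no measure of spread.

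The general genes of heme synthesis, which all cells use, varied little between samples. The 10 genes listed all passed the filter, with *Fech*, which inserts the iron, at a median of 54.5 CPM, *Alas1*, the housekeeping form of the first enzyme, at 48.9 CPM, *Cpox* at 34.6 CPM and *Urod* at 31.7 CPM. Their summed level lay between 269 and 296 CPM over all samples. Of the 10, 0 passed for genotype in either tissue, with a median log2 fold change of 0.04 in the hippocampus and 0.01 in the neocortex, against 0.00 and 0.00 over all genes. *Abcb10*, a transporter of the inner mitochondrial membrane, was higher in the hippocampus than in the neocortex of WT samples (log2 fold change 0.21, adjusted p = 0.0152 by edgeR).

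Genes that clear heme and hemoglobin did not pass for genotype. Of 9 listed, 7 were tested, and 0 passed in either tissue. *Hmox1*, the heme oxygenase induced by heme, stood between 3.35 and 5.80 CPM with an r of -0.08 with hemoglobin, and *Hmox2*, its constitutive form, had a median of 64.5 CPM. *Lrp1*, the receptor for heme bound to hemopexin, had a median of 506 CPM, and *Slc40a1*, the iron exporter ferroportin, of 11.5 CPM. Between the tissues, *Hmox2* was higher and *Blvra*, biliverdin reductase A, was lower in the hippocampus in both genotypes (log2 fold changes of 0.14 and -0.44 in WT, adjusted p = 0.0165 and 0.00345 by edgeR). Within miR-324-null samples *Lrp1* was lower in the hippocampus than in the neocortex (-0.26, adjusted p = 0.0252 by edgeR).

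Genes of the vessel wall ranged over less than those of hemoglobin. The summed level of 10 endothelial genes, led by *Flt1*, *Slc2a1*, *Slco1a4* and *Cldn5*, lay between 334 and 475.7 CPM over all samples, and that of 8 pericyte and smooth muscle genes, led by *Rgs5*, *Vtn*, *Pdgfrb* and *Acta2*, between 271 and 364 CPM. Of these lists 0 genes passed for genotype, and in WT samples *Esam* and *Abcc9* were lower in the hippocampus. The endothelial sum had an r with hemoglobin of -0.07 in the hippocampus (permutation p = 0.85, adjusted p = 0.98) and of -0.15 in the neocortex (permutation p = 0.67, adjusted p = 0.90), with rho of 0.04 and -0.26 (p = 0.92 and 0.47, adjusted p = 0.98 and 0.76).

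For leukocytes r was 0.44 and -0.55 in hippocampus and neocortex (permutation p = 0.21 and 0.094, adjusted p = 0.75 and 0.59), and rho was 0.55 and -0.54 (p = 0.11 for each, adjusted p = 0.59 for each). The r of -0.55 became 0.04 without the 2 samples farthest from the median, whereas with the means of the genotypes removed it was -0.50 and became -0.73. For platelets r was 0.0024 and 0.23 (permutation p = 1.0 and 0.53, adjusted p = 1.0 and 0.76), and rho was -0.07 and 0.36 (p = 0.87 and 0.32, adjusted p = 0.98 and 0.75). For the choroid plexus r was 0.31 and 0.37 (permutation p = 0.40 and 0.33, adjusted p = 0.76 and 0.75), and rho was 0.36 and 0.25 (p = 0.31 and 0.49, adjusted p = 0.75 and 0.76). These 8 relations of hemoglobin with other cells, over 10 samples each, were added after the values had been seen and were adjusted as one family, in which 0 passed.

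The choroid plexus and the meninges carry blood vessels and can stay attached to dissected tissue. The summed level of 8 choroid plexus genes, led by *Ttr*, *Enpp2*, *Kl* and *Clic6*, was 5643 CPM in WT hippocampus replicate 3, which also had the most hemoglobin, and 4674 CPM in miR-324-null hippocampus replicate 5, whose hemoglobin sum of 371 CPM was the middle value of its group. The 8 other hippocampal samples lay between 185 and 296 CPM, and they include the miR-324-null replicates 2 and 3 with hemoglobin sums of 880.3 and 964 CPM. In the neocortex the highest choroid plexus sum was 1351 CPM, in miR-324-null replicate 2, the sample with the most hemoglobin of its group. Without the 2 samples farthest from the median in hemoglobin, the r of hemoglobin and choroid plexus was -0.12 for hippocampal samples and stood at 0.70 for neocortical ones. With the means of the genotypes removed, the neocortical r was 0.53, and -0.07 without the 2 samples farthest out, so that its sign depended on the samples and the centring. The summed level of 9 meningeal genes, led by *Igf2*, *Dcn*, *Slc6a20a* and *Mgp*, was highest in WT hippocampus replicate 3, at 343 CPM, and next in miR-324-null hippocampus replicate 5, at 255 CPM, and ran from 44.9 to 188 CPM in the other samples. For genotype 0 genes of both lists passed. Between the tissues 7 choroid plexus genes were tested for each genotype. For WT 5 were higher in the hippocampus (*Ttr*, *Kl*, *Clic6*, *Otx2* and *Sostdc1*), and for miR-324-null 1 was (*Kl*). Of 9 meningeal genes tested, the same 3 were higher there for each genotype (*Dcn*, *Lum* and *Ogn*). Among all genes tested, 36.1% passed for tissue with WT mice and 27.4% with miR-324-null mice, counting both directions. Whether the 2 lists differ from these shares was not tested. The part of choroid plexus and meninges in the hemoglobin values was not tested. In bulk tissue more cells of a type cannot be told apart from more RNA per cell.

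The numbers of genes called for genotype changed when the hemoglobin level was put into the fit. In the hippocampus 17 genes passed without the term and 10 with it, 9 of them in common. In the neocortex 47 passed without it and 27 with it, and all 27 were among the 47. The term takes up 1 degree of freedom in fits of 10 samples, and whether the smaller counts come from that or from hemoglobin was not tested.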

How the data were processed

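Stranded mRNA libraries of 20 samples (5 per genotype and tissue) were pseudo-aligned by the authors with kallisto to the mouse GRCm38 transcriptome. The submitters' processing notes name the human build GRCh38, but all identifiers used here are of mouse transcripts. The authors deposited, for each of 115270 transcripts, an estimated count and a TPM value, with no normalization between samples except the fixed total of TPM. The kallisto version is not given in the sources used here. Matching identifiers to GENCODE (GRCm38) placed 113580 transcripts in 35580 genes, whose summed values were rounded. The remaining 1690 transcripts, at most 0.556% of a sample's counts, did not enter. Depth is the sum of the estimated counts, 12752439 to 19617765 per sample, and 3 counts were taken as the smallest level a sample can show. Intervals and this floor cover counting error only.

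Groups were taken from the labels. Genes were tested with edgeR 4.0.16 in R 4.3.3 (TMM, the default filter on low counts, quasi-likelihood test, Benjamini-Hochberg adjustment over all genes at 0.05), with each comparison fitted on its own 10 samples and the interaction on all 20. Nothing in the labels says that the 5 samples of a group are 5 animals, so p values measure the spread between these samples, part of which may be technical. Relations across samples used log2 CPM with a prior count of 2 and 100000 permutations in Python (version 3.11.15, scipy 1.17.1, numpy 2.4.6). Alternatives were DESeq2 1.42.0, its size factors in edgeR, an unfiltered gene set, at least 10 counts in every sample, an offset for transcript length, limma 3.58.1 on log2(TPM + 1) and log2(TPM + 0.1), the copies summed, the replicate number as a block, all 20 samples in 1 fit, the hemoglobin level as a covariate and each replicate left out. The steps were tested on simulated counts.

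The members and the gene lists (other globins, red cells, heme synthesis, heme clearance, leukocytes, platelets, endothelium, pericytes, choroid plexus, meninges, and tissue and cell markers) were chosen with earlier results of these data known. By rule, every member was named in every comparison, and of each list the genes called and up to 4 with the highest mean, and the 10 genes most like hemoglobin by r. A few listed genes are not reported here by name. Some others were chosen for naming afterwards, with values in view. The summed markers of neurons lay between 5411 and 7794 CPM over all samples, those of astrocytes between 852 and 1579, of oligodendrocytes between 3496 and 6588 and of microglia between 178 and 277, and of these lists 0 genes passed for genotype. Promoter sequence was from RefSeq. Protein sequences were not used here.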

Additional observations from a re-analysis of the deposited data

Results flagged for a closer look

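WT hippocampus replicate 3 stood at 597 CPM of *Hba-a1*, while the other 4 samples of its group lay between 150.3 and 266 CPM, and its gap to the next sample was 0.741 of the range of the group. Of the 20 combinations of member and group, only this one passed the cutoff set for such a gap, which chance alone passes about 1 time in 20. The members moved together from sample to sample, so the 20 combinations are not independent. How unusual 1 flag among them is was therefore not tested, and the cutoff alone does not set *Hba-a1* apart from the other members. In the same library the other 4 members were also the highest of all samples, with 180.3 CPM of *Hba-a2*, 351 CPM of *Hbb-bs*, 243 CPM of *Hbb-bt* and 14.4 CPM of *Alas2*.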

How the results depend on the processing

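The hemoglobin covariate is left out of the counts of member values here, since 4 of the members make it up. Under the other alternatives 0 of the 5 members passed for any comparison. Where these kept every sample, 245 of the 245 member values had the direction of the values in the report, with a lowest adjusted p of 0.0934. With 1 replicate left out, 31 of 300 changed sign, with a lowest adjusted p of 0.0802. In the hippocampus the genotype values then ranged from -0.55 to 0.23 for *Hba-a1*, from -0.50 to 0.28 for *Hba-a2*, from -0.54 to 0.13 for *Hbb-bs* and from -0.60 to 0.12 for *Hbb-bt*. In the neocortex they ranged from -0.45 to 0.028 for *Hbb-bt* and from -0.28 to 0.0066 for *Alas2*. The tissue values ranged from -0.0063 to 0.63 for *Hba-a2* in WT and from -0.063 to 0.38 for *Alas2* in miR-324-null samples. The interaction values ranged from -0.26 to 0.51 for *Hba-a1*, from -0.14 to 0.63 for *Hba-a2*, from -0.34 to 0.33 for *Hbb-bs*, from -0.43 to 0.30 for *Hbb-bt* and from -0.54 to 0.10 for *Alas2*. The 4 relations between members passed on log2(TPM + 1) too, with r between 0.84 and 0.99.

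Counts of genes called for genotype moved more, and apart from fewer genes or samples the cause was not tested. In the hippocampus, 17 became 139 with DESeq2, 83 with all 20 samples in 1 fit, 9 with at least 10 counts in every sample, 11 with limma on log2(TPM + 0.1), 10 with the hemoglobin covariate and 10 to 31 with 1 replicate left out. In the neocortex, 47 became 240 with DESeq2, 26 with at least 10 counts, 30 with the transcript length offset, 29 and 22 with limma on log2(TPM + 1) and log2(TPM + 0.1), 27 with the covariate and 27 to 566 with 1 replicate left out, the 566 without miR-324-null replicate 5. Same-numbered samples did not deviate together throughout (-0.17 to 0.11 between genotypes in the hippocampus, -0.10 to 0.12 in the neocortex, and -0.10 to 0.10 between tissues in WT), so the number was not used for pairing. Between the tissues of miR-324-null samples all 5 correlations were positive (0.017 to 0.18), and 4 of 5 samples there and 3 of 5 in WT correlated best with their own number, a hint from the data and not from the design. With the replicate block 4 hippocampal and 30 neocortical genes passed, and 0 of the 5 members passed. At an unadjusted p of 0.05, 1635 and 1822 genes passed without the block. The spread of hemoglobin between samples limits what could be detected, with standard errors of up to 0.44 for genotype and up to 0.55 in the interaction test. With at least 467 counts of each hemoglobin gene in every sample depth limits it less, while *Alas2* had as few as 36 counts.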
